A study of Mus musculus with 4 samples.

Results

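The MHC class I presentation genes are 10 genes that together make, load and display peptides on the cell surface, and they were followed in the blood of mice given naringenin (Nar). The 10 members, which are B2m, H2-K1, H2-D1, H2-T23, Tap1, Tap2, Tapbp, Calr, Pdia3 and Nlrc5, were taken by gene symbol from the 23136 genes listed, and all 10 had values in the 4 libraries. The libraries came from blood of C57BL/6 mice labelled adult, which the study describes as aging. Nar, a flavonoid injected into the tail vein, was given for 30 days to the mice of Nar 1 and Nar 3, and phosphate-buffered saline (PBS) for the same time to those of Ctrl 1 and Ctrl 3. Messenger RNA was captured with oligo(dT) beads. The labels do not say whether a library is 1 animal or a pool, so p-values measure only the spread between these libraries.

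MHC class I molecules report the contents of a cell to CD8 T cells and natural killer cells. A heavy chain, encoded in the mouse by H2-K1, H2-D1 and related genes, pairs with the invariant light chain β2-microglobulin, encoded by B2m. Peptides cut in the cytosol are pumped into the endoplasmic reticulum by the Tap1-Tap2 transporter and fitted into the groove by a loading complex that holds tapasin (Tapbp), calreticulin (Calr) and the disulfide isomerase ERp57 (Pdia3). Nlrc5 is the transactivator that switches on class I genes, and it acts on a promoter element made of so-called X and Y boxes. Platelets carry class I molecules and B2m messenger RNA, so platelets as well as leukocytes can add class I RNA to a blood library. What red cells add was not tested.

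Values are FPKM, fragments scaled by transcript length and by mapped fragments, so they are levels per length relative to the library and not amounts per volume of blood. The members ranged in mean level over the 4 libraries from 1756 FPKM for B2m to 0.695 FPKM for Nlrc5. Haemoglobin genes took between 92.6% and 96.4% of the summed FPKM, which marks the samples as red cell-rich blood, and all other genes share the remainder. Among the 5339 genes with a mean of at least 0.5 FPKM, the median log2 fold change (Nar minus Ctrl, on log2(FPKM + 0.1)) was -1.07, so a member is lower than most genes only where it lies under that value. All 10 members passed this filter on low values, Nlrc5 only through its control libraries, since its Nar mean was 0.185 FPKM. In such bulk samples, fewer cells of a type and less RNA per cell cannot be told apart.

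The promoters of B2m, H2-D1 and H2-K1 share a spaced pair of motifs, which is shown here because it is the element through which class I heavy chain and light chain genes are known to be switched on together. The RefSeq promoter table (GRCm38.p6) held windows from 250 bases before to 50 bases after the annotated start for 8 of the 10 members, Tap2 and Nlrc5 not among them. The letters searched, on both strands, were TGACG for the core of the X2 box, ATTGG for the Y box and GAAANNGAA for an interferon response element. In the following stretches, written 5′ to 3′ on the gene's strand, capitals mark the X2 core and the Y box.
B2m, chr2:122147609-122147638, plus strand: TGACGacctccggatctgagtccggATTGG
H2-D1, chr17:35262993-35263022, plus strand: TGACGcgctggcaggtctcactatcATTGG
H2-K1, chr17:34000359-34000388, minus strand: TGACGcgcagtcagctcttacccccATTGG
In each of the 3 genes the Y box began 25 bases after the start of the X2 core. Of the 20 bases between the motifs, which the search did not fix, H2-D1 and H2-K1 shared 13, while B2m shared 2 with H2-D1 and 3 with H2-K1. The pair searched was an X2 core with a Y box on the same strand that begins 15 to 35 bases after the core's start. It stood in 3 of the 8 members' promoters and in 0.747% of 32544 distinct promoter windows of the same length.

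Upstream of the pair, B2m also matches the interferon response element letters, so a longer stretch of its promoter is given. It runs from 150 bases before the annotated start up to that start, with the matches to the 3 motifs in capitals.
B2m, chr2:122147537-122147686, plus strand: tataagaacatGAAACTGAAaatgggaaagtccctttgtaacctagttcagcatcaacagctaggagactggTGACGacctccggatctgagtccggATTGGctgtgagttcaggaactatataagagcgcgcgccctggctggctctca
The letters GAAANNGAA matched in 2 of the 8 promoters, those of B2m and H2-T23, and in 8.53% of all windows. Other forms of an interferon response element were not searched, so a window without a match may still hold one. A Y box alone matched in all 8, against 37.4% of all windows, and an X2 core alone in 5, against 20.9%. A match describes letters only and was not tested for binding.

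**Figure D1:**
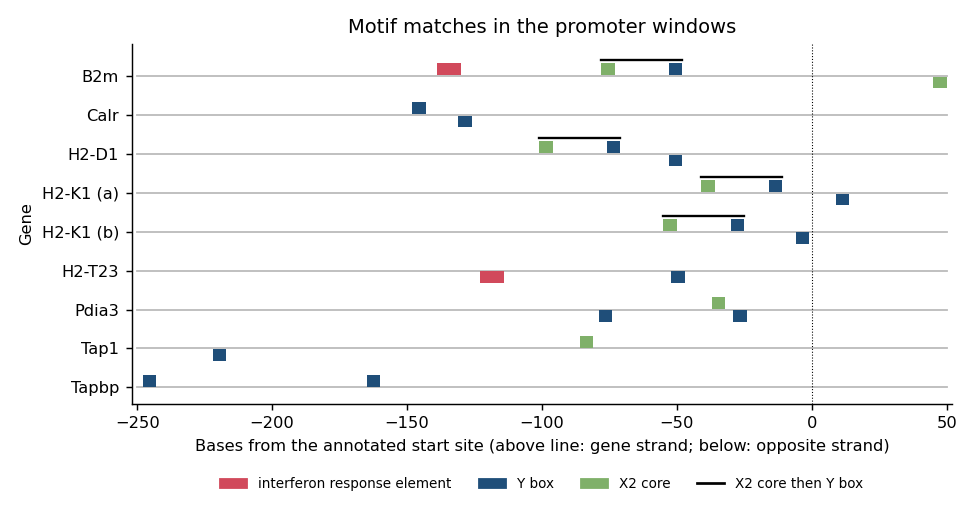
Matches to the X2 core, the Y box and the interferon response element in the promoter windows of 8 members, plotted by distance in bases from the annotated start site; H2-K1 has 2 windows (a and b) for 2 annotated starts. The black line marks the X2 core followed by a Y box, seen only in B2m, H2-D1 and H2-K1 among these windows.

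In the deposited FPKM, all 10 members had a higher level in each Ctrl library than in any Nar library. With limma, 7 of the 10 passed the threshold of 0.05 on the p-value after Benjamini-Hochberg adjustment over all tested genes, these being B2m, H2-K1, Tap1, Tap2, Tapbp, Pdia3 and Nlrc5, while H2-D1, H2-T23 and Calr did not pass. The same test called 39.6% of all tested genes lower and 0.187% higher, and 78.3% of tested genes had both Nar libraries under both Ctrl libraries. The filter let 1561 of the 5339 genes in through the control libraries alone, Nlrc5 among them, and a gene that entered so had to differ. Of the 9 members with a mean of at least 0.5 FPKM in each group, 6 were called lower, and so were 32.3% of the 3748 genes of that kind. Their median log2 fold change was -1.44, against -0.997 over those genes, and 8 of the 9 lay under it, Calr being the exception. Median-of-ratios scaling, which levels the typical gene between libraries and moves the median of all genes by 1.01 on the log2 scale, left 0 of 10 members called, with 1 at an unadjusted p-value under 0.05, where 0.356% of all genes were called lower. On that scale the log2 fold change was negative for 9 members and positive for Calr.

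**Figure D2:**
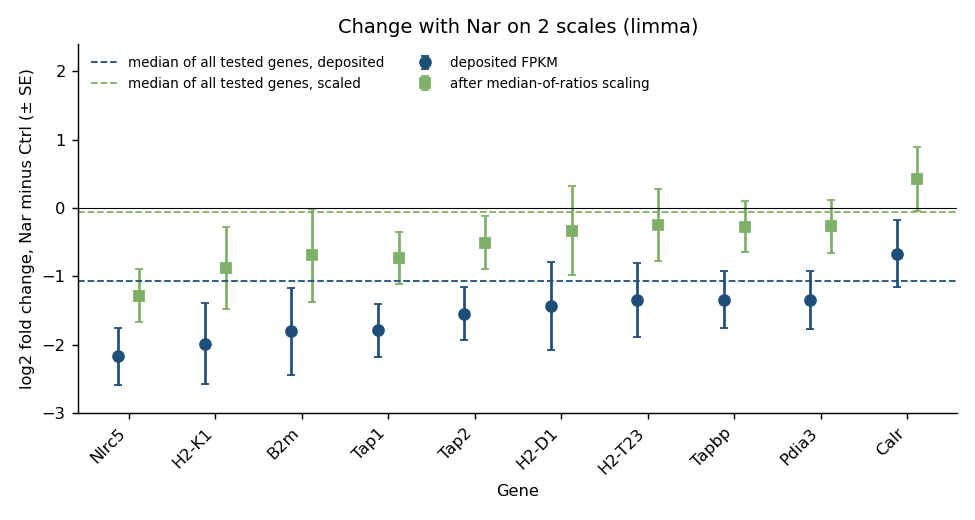
Log2 fold change of each member, Nar minus Ctrl, with the limma standard error, from deposited FPKM (circles) and after median-of-ratios scaling (squares); dashed lines are the medians of all tested genes on each scale. Calr lies highest on both scales and is the only member above 0 after scaling, and Nlrc5 passed the filter on low values through its control libraries alone.

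B2m was the most abundant member and the one whose control libraries differed most. B2m (NCBI Gene 12010, chromosome 2, 122147687 to 122153082) had 1013 FPKM in Ctrl 1 and 4728 in Ctrl 3, compared with 779 in Nar 1 and 504 in Nar 3. The Nar libraries lay within 1.55-fold of each other, whereas Ctrl 3 was 4.67-fold above Ctrl 1, and only 39 of the 5339 tested genes had a larger excess in Ctrl 3. Ranked by FPKM in its library, B2m stood at position 12 in Ctrl 1 and 7 in Ctrl 3, compared with 18 in Nar 1 and 25 in Nar 3. Of the FPKM that haemoglobin left, it took 1.35% in Ctrl 1 and 4.32% in Ctrl 3, compared with 1.18% in Nar 1 and 0.884% in Nar 3. The control mean was 2871 ± 2627 FPKM (SD, n = 2), an error almost as large as the mean, and the Nar mean was 641 ± 195 FPKM (SD, n = 2). The log2 fold change was -1.80 (standard error, SE, 0.637, limma adjusted p = 0.0496), just inside the threshold. The call did not hold with a pseudocount of 1 (limma adjusted p = 0.0678) or 0.01 (0.0517), after TPM rescaling (0.0552), in limma without the trend (0.0667) or with haemoglobin genes removed (0.211), and over all 14 alternatives the adjusted p ranged from 0.00178 to 0.788. Set against Ctrl 1 alone, the mean of the Nar libraries was lower by a log2 difference of -0.69, and against Ctrl 3 alone by -2.92.

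The classical heavy chain genes H2-K1 and H2-D1, whose products present peptides to CD8 T cells, had the same order of libraries as B2m, with Ctrl 3 far above the other libraries. H2-K1 (NCBI Gene 14972, chromosome 17, 33996012 to 34000619) had 56.0 FPKM in Ctrl 1 and 145 in Ctrl 3, compared with 26.7 in Nar 1 and 19.1 in Nar 3. H2-D1 (NCBI Gene 14964, chromosome 17, 35263094 to 35267497) had 73.0 FPKM in Ctrl 1 and 251 in Ctrl 3, compared with 57.0 in Nar 1 and 43.5 in Nar 3. In both genes the Nar libraries were close together and below the lower control. H2-K1 averaged 22.8% of its control level, with a log2 fold change of -1.99 (SE 0.596, limma adjusted p = 0.0329). H2-D1 averaged 31.1% of its control level, with a log2 fold change of -1.44 (SE 0.641) that missed the threshold (limma adjusted p = 0.0894). Ctrl 3 exceeded Ctrl 1 by 2.58-fold for H2-K1 and 3.43-fold for H2-D1. The heavy chain genes are alike in parts. Of the 50-base stretches in the longest coding transcript, 8.79% of H2-K1 and 14.3% of H2-D1 also occur in transcripts of other genes. Some of their reads may therefore have been split uncertainly.

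H2-T23 encodes the non-classical heavy chain Qa-1, a ligand of natural killer cell receptors. H2-T23 (NCBI Gene 15040, chromosome 17, 36029977 to 36032701) had 16.3 FPKM in Ctrl 1 and 32.3 in Ctrl 3, compared with 10.1 in Nar 1 and 7.92 in Nar 3. It repeated the order of the classical genes at a lower level and with a smaller gap between controls, 1.99-fold. The log2 fold change was -1.35 (SE 0.538, limma adjusted p = 0.0688) and did not pass. It shares 28.8% of its 50-base stretches with other genes, the pseudogene H2-T-ps among them, and is the least certain member in this respect.

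**Figure D3:**
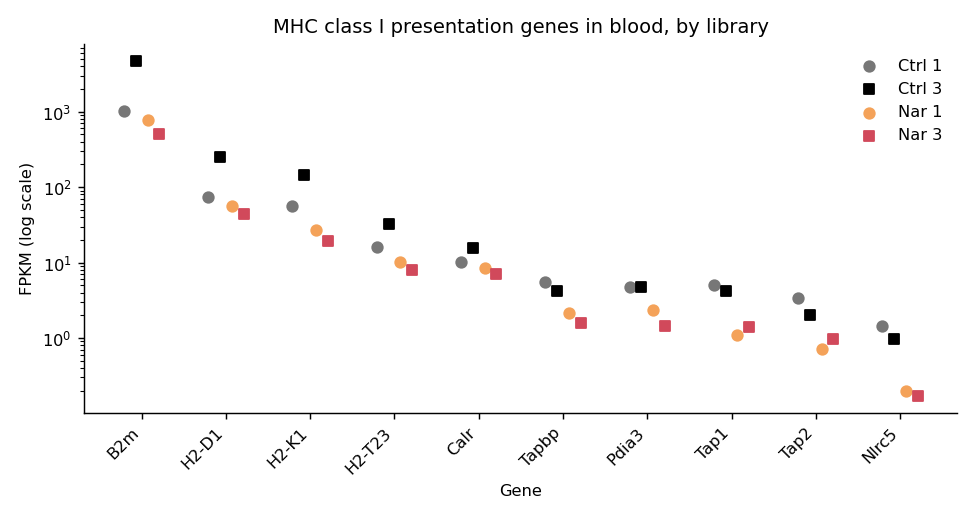
FPKM of the 10 members in each library on a log scale, ordered by mean level. Ctrl 3 stands above Ctrl 1 for B2m and the heavy chains but not for Tap1, Tap2, Tapbp or Nlrc5, and in every gene both Nar libraries are lower than both Ctrl libraries.

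The transporter genes behaved otherwise between controls, and both were called. Tap1 (NCBI Gene 21354, chromosome 17, 34187556 to 34197225) had 5.00 FPKM in Ctrl 1 and 4.14 in Ctrl 3, compared with 1.11 in Nar 1 and 1.39 in Nar 3. Tap2 (NCBI Gene 21355, chromosome 17, 34204479 to 34216321), 7253 bases away, had 3.37 FPKM in Ctrl 1 and 2.04 in Ctrl 3, compared with 0.72 in Nar 1 and 0.96 in Nar 3. Here Ctrl 1 was the higher control and Nar 3 the higher Nar library, the reverse of B2m in both groups. The log2 fold change was -1.79 for Tap1 (SE 0.391, limma adjusted p = 0.016) and -1.55 for Tap2 (SE 0.392, limma adjusted p = 0.0225). The ratio of Tap1 to Tap2 within a library does not depend on library scaling, and it was 1.48 in Ctrl 1 and 2.03 in Ctrl 3, compared with 1.54 in Nar 1 and 1.45 in Nar 3. The groups overlapped in this ratio (two-sided exact permutation p = 0.667), with the highest library 1.40-fold above the lowest.

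Of the loading complex, Tapbp and Pdia3 were called lower and Calr was not. Tapbp (NCBI Gene 21356, chromosome 17, 33919478 to 33929290), the tapasin that bridges transporter and heavy chain, had 5.46 FPKM in Ctrl 1 and 4.24 in Ctrl 3, compared with 2.14 in Nar 1 and 1.57 in Nar 3. Pdia3 (NCBI Gene 14827, chromosome 2, 121413902 to 121438687), a disulfide isomerase of the endoplasmic reticulum, had 4.79 FPKM in both controls, 2.33 in Nar 1 and 1.43 in Nar 3. The groups stood well apart in these genes, with log2 fold changes of -1.34 for each (SE 0.416 for Tapbp and 0.425 for Pdia3, limma adjusted p = 0.0356 and 0.0379). Calr (NCBI Gene 12317, chromosome 8, 84842088 to 84846931), a lectin chaperone that also buffers calcium, had 10.1 FPKM in Ctrl 1 and 15.4 in Ctrl 3, compared with 8.46 in Nar 1 and 7.15 in Nar 3. Its lower control lay close to the higher Nar library, and its log2 fold change was -0.67 (SE 0.490, limma adjusted p = 0.251), the smallest among the members. After median-of-ratios scaling the sign of Calr turned, to 0.43 (limma adjusted p = 0.827). The ratio of Calr to Pdia3 was 2.10 in Ctrl 1 and 3.21 in Ctrl 3, compared with 3.63 in Nar 1 and 5.00 in Nar 3. The groups did not overlap, and the two-sided exact permutation p = 0.333 is the smallest that 2 libraries against 2 allow.

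Nlrc5, the transactivator, had the lowest level of the 10 and was called lower. Nlrc5 (NCBI Gene 434341, chromosome 8, 94434335 to 94527272) had 1.44 FPKM in Ctrl 1 and 0.97 in Ctrl 3, compared with 0.20 in Nar 1 and 0.17 in Nar 3. Its Nar libraries averaged 15.4% of the control mean, and each group was tight against the gap between them. The log2 fold change was -2.17 (SE 0.413, limma adjusted p = 0.0104). Because the gene entered the test through its control libraries, a difference was partly set by the filter, and its place among the tested genes is not read. It was -2.44 against Ctrl 1 alone and -1.91 against Ctrl 3 alone. After median-of-ratios scaling it was -1.29 (limma adjusted p = 0.184). At values near 0.2 FPKM, rounded to 2 decimals and of unknown depth, the size of this fall depends on the added 0.1, and it was -0.89 with 1 and -2.62 with 0.01. Its log2 fold change was the lowest of the members with 0.1 added to deposited FPKM, but with 1 added H2-K1 (-1.95), B2m (-1.80), H2-D1 (-1.43) and others lay lower, and without Ctrl 1 so did B2m, H2-K1 and H2-D1.

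The control libraries fell into opposite orders within the class I genes. Ctrl 3 was above Ctrl 1 for 5 members (B2m, H2-D1, H2-K1, H2-T23 and Calr), equal for Pdia3 and below for 4 (Tap1, Tapbp, Nlrc5 and Tap2), while 56.6% of all tested genes were higher in Ctrl 3 with a median log2 difference of 0.13. Of the 6 tested heavy chain genes outside the 10, 4 were higher in Ctrl 3 and 2 lower, with ratios of Ctrl 3 to Ctrl 1 from 0.537 for H2-M3 and 0.865 for H2-Q7, through 1.09 for H2-T10, to 5.68 for H2-T22. H2-T22, chosen here for its gap, had 6.78 FPKM in Ctrl 1 and 38.5 in Ctrl 3, compared with 6.43 in Nar 1 and 5.27 in Nar 3. All 6 platelet markers were also higher in Ctrl 3 than in Ctrl 1. Their summed level was 589 FPKM in Ctrl 1 and 1878 in Ctrl 3, compared with 497 in Nar 1 and 384 in Nar 3. The sum, like Itga2b and Gp9 alone, had the same order of libraries as B2m. The other markers did not, since Ppbp, Gp1ba and Gp6 were higher in Nar 1 than in Ctrl 1, and Pf4 was higher in Nar 3 than in Nar 1. Between Nar and Ctrl, 0 of the 6 platelet markers were called in limma (1 at an unadjusted p-value under 0.05), and 3 of them overlapped between groups, where 39.6% of all tested genes were called lower and 78.3% had both Nar libraries under both Ctrl libraries. Pf4, a platelet chemokine, had 233 FPKM in Ctrl 1 and 846 in Ctrl 3, compared with 150 in Nar 1 and 161 in Nar 3. Ptprc, the leukocyte common antigen CD45, ran the other way between controls, with 18.1 FPKM in Ctrl 1 and 9.29 in Ctrl 3, compared with 4.81 in Nar 1 and 2.49 in Nar 3. Ctrl 3 was also lower for all 6 B cell markers, 5 of 7 T cell markers and 5 of 6 natural killer cell markers, and higher for 9 of 10 erythroid markers.

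**Figure D4:**
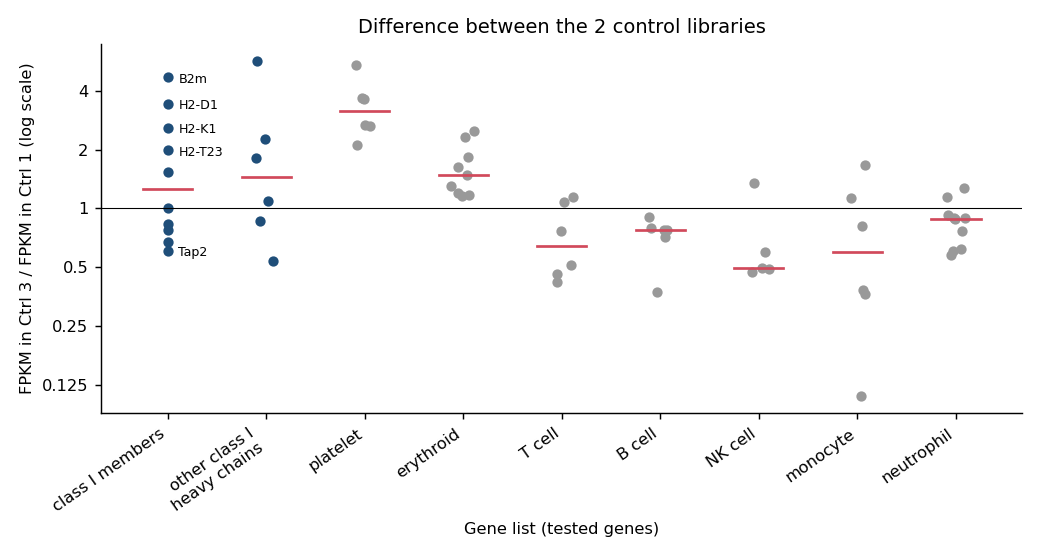
Ratio of FPKM in Ctrl 3 to FPKM in Ctrl 1 on a log scale, 1 point per tested gene, for the class I members, the other class I heavy chains and the marker lists; red bars are medians. B2m, at 4.67, H2-D1 and H2-K1 lie in the range of the platelet markers, all of which are above 1, H2-T23 lies just under that range, and the transporter gene Tap2 sits at 0.605.

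Relative to the summed platelet markers, a ratio added after the values were seen, B2m stood at 1.72 in Ctrl 1 and 2.52 in Ctrl 3, compared with 1.57 in Nar 1 and 1.31 in Nar 3. H2-D1 stood at 0.124 in Ctrl 1 and 0.133 in Ctrl 3, compared with 0.115 in Nar 1 and 0.113 in Nar 3, so the highest library was 1.18-fold above the lowest where H2-D1 itself spanned 43.5 to 251 FPKM. Over the 4 libraries the same ratio ranged 1.61-fold for H2-T23, 1.91-fold for H2-K1, 1.92-fold for B2m, 2.27-fold for Calr, 3.19-fold for Pdia3, 3.85-fold for Tap1, 4.11-fold for Tapbp, 5.27-fold for Tap2 and 6.08-fold for Nlrc5. For B2m, H2-K1, H2-D1 and Nlrc5 this ratio was lower in each Nar library than in any Ctrl library. For the other 6 members the groups overlapped. Nlrc5 had passed the filter through the control libraries alone. The share of all tested genes that separate in this ratio was not computed, so neither this count nor the ranges are read as particular to the members. Against the 39.6% of all tested genes called lower, the neutrophil markers had 10 of 10 called lower, 2 of them having passed the filter through the control libraries alone, and a sum of 1638 FPKM in Ctrl 1 and 1361 in Ctrl 3 that compares with 99.6 in Nar 1 and 157 in Nar 3. The monocyte markers had 4 of 6 called lower, with sums of 57.3 and 51.2 against 8.04 and 3.31 FPKM. In limma 0 of 6 tested B cell markers and 0 of 6 tested T cell markers were called (0 and 2 at an unadjusted p-value under 0.05). The B cell sums were 37.3 and 28.8 FPKM for Ctrl 1 and Ctrl 3 beside 28.2 and 29.3 for Nar 1 and Nar 3, and the sums over 7 T cell markers were 8.56 and 5.98 beside 5.32 and 3.70 FPKM. Of 5 tested natural killer cell markers 1 was called lower (4 at an unadjusted p-value under 0.05), and Ncr1, Klrb1c and Klrk1 had passed the filter through the control libraries alone. The sums over all 6 listed natural killer cell markers were 19.9 and 18.1 beside 9.36 and 4.83 FPKM. After median-of-ratios scaling, where 0.356% of all genes were called lower, 3 of the 10 neutrophil markers and 1 of the 6 monocyte markers were called lower. What part these cell types have in the class I values was not tested.

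Set against Ptprc within the same library, which removes library scaling, the class I genes no longer separated the groups in most cases. B2m was 55.9 times Ptprc in Ctrl 1 and 509 times in Ctrl 3, compared with 162 times in Nar 1 and 202 times in Nar 3, so both Nar libraries lay between the controls. H2-K1 and H2-D1 had the same order. Of the 10 ratios to Ptprc, 8 overlapped between groups, that of Calr was higher and that of Nlrc5 lower in both Nar libraries. Nlrc5 stood at 0.0794 times Ptprc in Ctrl 1 and 0.104 in Ctrl 3, compared with 0.0416 in Nar 1 and 0.0683 in Nar 3, a log2 difference of -0.77. It had passed the filter through its control libraries alone, with 0.20 FPKM in Nar 1 and 0.17 in Nar 3. Its lower ratio was therefore partly set by the filter and is not read against the shares over all genes. Of all tested genes other than Ptprc, 60.9% overlapped in this ratio, 34.9% were higher and 4.18% lower in both Nar libraries, and Ptprc itself was called lower. The ratio was higher in Ctrl 3 than in Ctrl 1 for all 10 members, as it was for 93.4% of tested genes, Ptprc being lower in Ctrl 3. Over the 15 ratios tested, which leave out the ratios added after the values were seen, the smallest two-sided exact permutation p was 0.333, and after Benjamini-Hochberg adjustment each was 1.

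**Figure D5:**
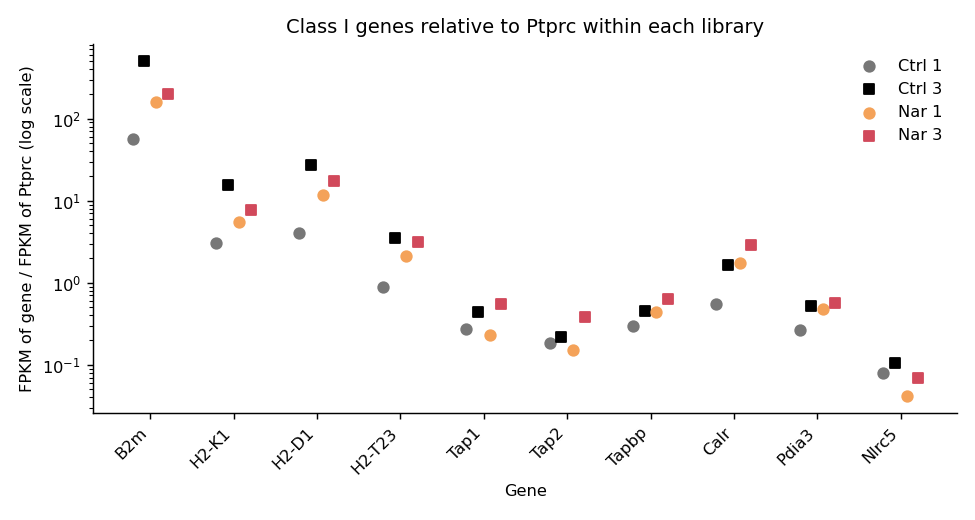
FPKM of each member divided by the FPKM of Ptprc in the same library, on a log scale. For B2m, H2-K1, H2-D1 and H2-T23 both Nar libraries lie between Ctrl 1 and Ctrl 3. For Nlrc5, which passed the filter on low values through its control libraries alone, both Nar libraries lie below both controls.

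The balance between light and heavy chains can be read without library scaling. H2-K1 stood at 0.0553 of B2m in Ctrl 1 and 0.0306 in Ctrl 3, compared with 0.0343 in Nar 1 and 0.0380 in Nar 3, and H2-D1 at 0.0720, 0.0530, 0.0732 and 0.0863 in the same order. B2m thus exceeded each classical heavy chain by more than 10-fold per length in every library. The ratio of H2-K1 to H2-D1 was 0.768 in Ctrl 1 and 0.577 in Ctrl 3, compared with 0.468 in Nar 1 and 0.440 in Nar 3. This ratio separated the groups, with Nar lower by a log2 difference of -0.55 in the means (two-sided exact permutation p = 0.333), and the shared stretches of the genes named above bear on this ratio.

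In a wider list of 37 other genes of the pathway, 21 were tested, of which 11 were called lower and 0 higher in limma on deposited FPKM, and 6 of the 21, with 3 of the 11 calls, had passed the filter through the control libraries alone. Of the other 15, 8 were called lower, against 32.3% of all genes with a mean of at least 0.5 FPKM in each group. All 15 had both Nar libraries under both Ctrl libraries, as had 72.8% of those genes, and their median log2 fold change was -1.40, against -0.997. On the median-of-ratios scale, 0 of the 21 were called (3 lower at an unadjusted p-value under 0.05), and 17 were negative and 4 positive. Of 6 tested heavy chains outside the members, 3 were called lower, H2-Q4, H2-Q7 and H2-T10, the last of which passed the filter through the control libraries alone. H2-T22, H2-T24 and H2-Q4 had the highest levels of this group, with log2 fold changes of -1.46, -1.17 and -1.49 and limma adjusted p-values of 0.125, 0.113 and 0.0358.

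In peptide supply, 5 of 6 tested genes were called lower on deposited FPKM, where 39.6% of all tested genes were, but Erap1 and Tpp2, both called, had passed the filter through the control libraries alone, which leaves 3 of 4. In folding and export 1 of 5 was called lower, or 1 of 3 without Tapbpl and Uggt1, which passed in the same way. Psme1 and Psme2, the activator subunits that open the proteasome, had log2 fold changes of -1.09 and -1.45 (limma adjusted p = 0.0859 and 0.0314), and Psmb9, a catalytic immunoproteasome subunit, -1.11 (limma adjusted p = 0.0403). In folding and export the called gene was the chaperone Hspa5, at -1.24 (limma adjusted p = 0.0382). Bcap31, an export receptor of the endoplasmic reticulum, had 17.6 FPKM in Ctrl 1 and 55.0 in Ctrl 3, compared with 14.2 in Nar 1 and 9.70 in Nar 3, the order of B2m again (limma adjusted p = 0.0937). Canx, the membrane-bound relative of calreticulin, had a log2 fold change of -0.86 (limma adjusted p = 0.0814).

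Of 4 tested regulators, all with a mean of at least 0.5 FPKM in each group, 2 were called lower, as were 32.3% of all such genes. Irf1, an interferon-induced factor that acts on class I promoters, had 6.50 FPKM in Ctrl 1 and 8.85 in Ctrl 3, compared with 0.96 in Nar 1 and 0.60 in Nar 3. Its log2 fold change of -3.16 (SE 0.420, limma adjusted p = 0.00427) was steeper than that of any member, and it was -2.11 after median-of-ratios scaling (limma adjusted p = 0.078). The log2 fold change of Irf2, a relative of Irf1, was -0.84 (limma adjusted p = 0.133), which did not pass. Of the controls, Ctrl 3 was the higher for Irf1, as for B2m. The 4 class I-like genes whose products pair with β2-microglobulin (Cd1d1, Mr1, Fcgrt and Hfe) had a mean under 0.5 FPKM and were not tested.

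With 1 library left out, its group holds a single library, which the fit assumes to vary like the pair of the other group, so the number of calls says little about stability. These fits gave 0 called members in limma, with 7 of 10 lower at an unadjusted p-value under 0.05 without Ctrl 1, 5 without Ctrl 3, 7 without Nar 1 and 3 without Nar 3. The calls over all tested genes fell with them, to 0 without Ctrl 1 or without Ctrl 3 (2669 and 2092 at an unadjusted p-value under 0.05), 254 without Nar 1 and 213 without Nar 3. Without Ctrl 3 the log2 fold change was -0.69 for B2m, -0.55 for H2-D1, -1.31 for H2-K1 and -0.86 for H2-T23, while it was -1.93 for Tap1, -1.90 for Tap2, -1.52 for Tapbp and -2.44 for Nlrc5.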

How the data were processed

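Blood RNA-seq libraries of 2 Nar-treated and 2 control samples were used, grouped by the sample labels. For alignment, the study's methods name bowtie-2 with reference gene sequences, while the submitters' processing notes name TopHat2, Cufflinks and GRCm38; which of them made the table is not given in the sources used here. The authors deposited FPKM values rounded to 2 decimals. Depth is unknown, and counting error is therefore not stated. Of 23136 genes, 5313 were blank throughout and left out.

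Differences were tested on log2(FPKM + 0.1) with limma 3.58.1 in R 4.3.3 (lmFit, eBayes with trend, Benjamini-Hochberg) over 5339 genes with a mean of at least 0.5 FPKM, a gene being called at an adjusted p-value under 0.05. The steps were tested on simulated data. Ratios were tested by exact permutation (scipy 1.17.1). Positions and promoters came from RefSeq GRCm38.p6, matched by NCBI Gene number for 10 of 10 members and 8 of 10 members, and 50-base stretches from GENCODE transcripts. Plots were drawn with matplotlib 3.10.9.

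The members and lists were chosen with earlier results of these data known. All members are named; of each role group of the wider list, up to 3 genes of the highest mean FPKM are named, and any further ones were chosen after their values were seen. The values of 1 gene of that list are not reported here. Alternatives were other pseudocounts, filters and scalings, limma without the trend, the replicate block, a crossed block added later, and each library left out.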

Additional observations from a re-analysis of the deposited data

How the results depend on the processing

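Members called lower numbered 7 in limma on deposited FPKM, 11 in the wider list and 2113 over all tested genes. Without the filter on low values these were 0, 0 and 0 (7, 16 and 4852 at an unadjusted p-value under 0.05), more genes being tested. With a mean of at least 5 FPKM they were 2 (of 5 tested), 0 (of 4 tested, 3 at an unadjusted p-value under 0.05) and 116. With haemoglobin genes removed they were 0 (4 unadjusted), 1 and 161, and after median-of-ratios scaling 0 (1 unadjusted), 0 (3 unadjusted) and 19. Leaving out each library gave 0 to 0 members, 0 to 2 genes of the wider list and 0 to 254 over all genes. The median log2 fold change of the 10 members, Nlrc5 included, was -1.49 on deposited FPKM, -1.15 with a pseudocount of 1, -0.93 with haemoglobin removed and -0.42 after median-of-ratios scaling, and ran from -1.75 to -1.32 over the libraries left out. The log2 fold change of Calr turned to 0.43 after median-of-ratios scaling; among single members no other sign turned. Over all alternatives, 76 member values kept both their direction and their side of the threshold, 56 lost a call, 2 gained one and 1, that of Calr, turned in sign without a call. B2m passed in 3 of 14 alternatives, with adjusted p-values from 0.00178 to 0.788. The causes were not tested.

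The groups share the replicate numbers 1 and 3, which pair nothing in the labels, and same-numbered libraries deviated from their group means with a correlation of -0.153 over genes. Under the replicate block, 4 members, 6 genes of the wider list and 1802 genes in all were called lower. A crossed replicate block, which was added once the values had been examined, gave 9, 14 and 3211. Depth is unknown, which limits Nlrc5 and other genes near the rounding step most.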

Other observations

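Among the immunoproteasome genes, Psmb8 was listed at 0 FPKM in all 4 libraries while Psmb9 had 2.57 FPKM in Ctrl 1 and 2.82 in Ctrl 3, compared with 1.20 in Nar 1 and 1.19 in Nar 3. H2-Q6, H2-M2 and H2-Bl were also listed at 0 throughout, and an exact 0 in a table of this kind can be a failed estimate. H2-Q10, a heavy chain secreted by liver, was listed at 1.45 FPKM in Ctrl 1 and 0 in Ctrl 3, compared with 0.03 in Nar 1 and 0 in Nar 3.

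Relative to B2m in the same library, H2-T22 stood at 0.00669 in Ctrl 1 and 0.00815 in Ctrl 3, compared with 0.00825 in Nar 1 and 0.0105 in Nar 3, so it ranged 1.56-fold where its FPKM ranged from 5.27 to 38.5. This ratio was chosen after the values were seen and has no test.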
